A study of Homo sapiens with 15 samples.

Results

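Genes that encode chromatin modifiers and remodelers were chosen by symbol: protein-coding genes of the KMT, KDM, SETD, ARID, CHD, SMARC, HDAC, KAT and BRD families, together with EP300, CREBBP, EZH2 and NSD1. The rule found 103 genes among the 57500 listed, and 99 of them were among the 16612 genes that reached 10 counts in 2 or more replicates of every one of the 5 conditions. BRDT, KDM4E, KDM4F and KDM5D were not kept. KDM4E was left out through the PEG pellets alone, where 14, 1 and 6 reads were counted on it against 22, 22 and 19 in input and 27 to 117 in the other pellets.

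Poly(A) RNA was measured in cytosolic extracts of U2OS cells, a human osteosarcoma line given as wild type in the sample labels, whereas the study describes its pellets as YFP-G3BP1 condensates. Extracts were held for 2 h at the same temperature without addition (mock), with 250 nM dsRNA (a trigger of innate RNA sensors), with 2 µg/ml silvestrol (an inhibitor of the initiation helicase eIF4A), or with 1% PEG (a crowding agent), and the material that sedimented was sequenced. Input extract was not pelleted, and whether it had been incubated is not given in the sources used here. Each of the 5 groups held 3 biological replicates, 15 libraries in all, and the 3 replicates of every group come from 1 cell line.

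Chromatin enzymes write, erase and read marks on histones or move nucleosomes. Methyltransferases such as the KMT2 proteins and acetyltransferases such as EP300 add groups to histone tails, and demethylases (KDM) and deacetylases (HDAC) remove them. BRD proteins bind acetylated lysine. The CHD and SMARC ATPases slide or evict nucleosomes, and some SMARC ATPases do so with ARID proteins such as ARID1A as subunits. Many of the proteins act in the nucleus, though not all (HDAC6 is a tubulin deacetylase of the cytoplasm). What was counted here is their mRNA in cytosol, where it is translated, and the question each comparison addresses is whether that mRNA took a larger or smaller share of the sedimented RNA than of the extract.

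The chromatin mRNAs are long. Their summed exons had a median of 8314 nt against 4427.5 nt over all genes kept, and their coding sequence a median of 3252 nt against 1440 nt over the 13539 genes with one. The longest by exons were ARID1B (44058 nt), KMT2A (21961 nt) and KMT2D (20476 nt), and the shortest were ARID3C (1411 nt), SMARCB1 (2481 nt) and SETD9 (2711 nt). GC content had a median of 49.3% against 48.8%. In input, CHD4, the ATPase of the NuRD complex, had the highest level per kilobase of exon (143 ± 9.20 CPM per kb, SD, n = 3), and HDAC4 the lowest (0.374 ± 0.0532). The median member stood at 8.13 CPM per kb, against 4.26 over all genes kept. ARID3C rested on 7 to 29 reads per library, the fewest of any member, so no call on it is firm.

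Total counts ran from 15341973 to 46939993 per library, with the PEG libraries at the low end (15341973 to 25675182). Of 10 osteoblast and mesenchymal genes, VIM, COL1A1, SPARC and RUNX2 were at 50.1 CPM or more in each input library, ALPL and SPP1 at 1.64 to 5.15, COL1A2, BGLAP and TWIST1 under 0.3, and IBSP at 0. Of the epithelial genes, EPCAM was at 7.70 to 11.7 CPM in input, and CDH1, KRT5, KRT14 and KRT19 were at 0 to 1.21. Hepatocyte and haematopoietic markers summed to under 1 CPM in every library. The 13 mitochondrially encoded mRNAs summed to 3630 to 4654 CPM in input, 9704 to 12211 in mock, 9446 to 14216 with dsRNA, 10684 to 13069 with silvestrol and 4653 to 7080 with PEG. Nuclear-retained RNAs (9 genes) summed to 1261 to 1592 CPM in input, 1449 to 2235 in mock, 1353 to 2274 with dsRNA, 1370 to 2189 with silvestrol and 798 to 1386 with PEG. The mitochondrial sums lay above those of input in the mock, dsRNA and silvestrol pellets. The nuclear-retained sums of every pellet group overlapped those of input. The part of both lists in the results below was not tested. Without mitochondrially encoded reads in the total, the share of the chromatin mRNAs was 0.969% to 0.987% in input, 1.30% to 1.33% in mock and 0.557% to 0.698% with PEG.

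As a sum, the chromatin mRNAs took up more of the mock, dsRNA and silvestrol pellets than of input, and less of the PEG pellets. Input libraries 1, 2 and 3 gave them 0.984%, 0.967% and 0.986% of the counts on kept genes. Mock libraries gave 1.31%, 1.29% and 1.32%, dsRNA libraries 1.38%, 1.402% and 1.36%, and silvestrol libraries 1.42%, 1.34% and 1.30%. PEG libraries gave 0.695%, 0.554% and 0.592%. The mock, dsRNA and silvestrol libraries all lay above the input libraries and the PEG libraries all lay below them. Means stood at 1.33 times input in mock, 1.41 times with dsRNA, 1.38 times with silvestrol and 0.627 times with PEG.

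**Figure D1:**
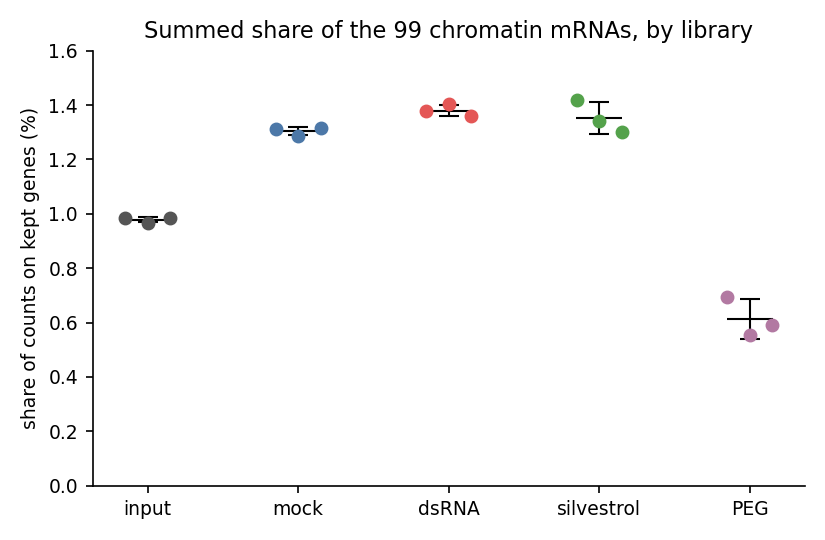
Summed share of the 99 chromatin mRNAs in the counts on kept genes, in percent, for each of the 15 libraries (points), with the mean and SD of each group of 3 (bars). The mock, dsRNA and silvestrol libraries lie between 1.29% and 1.42%, above the input libraries, and the PEG libraries lie at 0.554% to 0.695%, below them.

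In mock pellets, 34 of the 99 chromatin mRNAs rose against input and 11 fell, by edgeR's quasi-likelihood test at an adjusted p under 0.05. Over all 16612 genes 17.6% rose and 15.8% fell in the same fit. The median log2 fold change of the members was 0.28 and that of all genes 0.0013, and 76 members had a value above 0. With the replicate number as a block, 62 rose and 16 fell, where 32.5% and 30.1% of all genes did. The 34 rises had a median coding length of 4531.5 nt and a median GC content of 55.5%, the 11 falls 1449 nt and 46.0%, and the 54 members not called 3208.5 nt and 47.1%. After an offset that removes each library's GC trend, 25 members rose, where 10.7% of all genes did; 20 of these were among the 34. With the block and the offset together 52 rose, where 26.6% of all genes did, and 29 of the 34 rises and all 11 falls were called. The count of rises was 20 without mock replicate 3 and 21 without input replicate 2. That of falls was 3 without mock replicate 2 or without mock replicate 3. Shares of all genes in fits that leave out a library are not given here or below, so such counts describe the members alone.

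ARID4A and its paralogue ARID4B, subunits of SIN3 deacetylase complexes, were among the 3 largest rises in mock. Input libraries held ARID4A (GRCh38, chromosome 14, 58298385 to 58373887, plus strand) at 36.1, 29.7 and 32.7 normalised CPM and mock libraries held it at 61.0, 70.0 and 70.9. The lowest mock library stood far above the highest input library. Its log2 fold change was 1.07 ± 0.12 (SE, edgeR adjusted p = 0.00358), a fold of 2.10. ARID4B (chromosome 1, 235131634 to 235328219, minus strand) went from 60.6, 53.7 and 55.9 CPM to 98.1, 110.2 and 121 CPM, again without overlap (0.99 ± 0.12, edgeR adjusted p = 0.00358). Both are poor in GC (37.5% and 39.1%), and the GC offset moved their log2 fold changes up, to 1.23 and 1.15. Of the bases in ARID4B exons, 15.7% are shared with another gene.

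HDAC10, a deacetylase best known for acting on polyamines, had the largest value. It lay at 5.16, 6.61 and 7.44 CPM in input and at 12.03, 14.4 and 14.2 CPM in mock, with a log2 fold change of 1.105 ± 0.17 (edgeR adjusted p = 0.00463). It is also the member with the highest GC content, 66.9%, and the offset brought its value to 0.44 (edgeR adjusted p = 0.0279). Another gene shares 55.8% of its exon bases (chromosome 22, 50245183 to 50251405, minus strand), and since the strand setting of the counting is not given in the sources used here, its reads cannot be told apart from that neighbour's.

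SETD9, SETD3 and SMARCB1 were the largest falls. SETD9, a SET-domain protein, went from 22.4, 21.4 and 19.8 CPM in input to 11.1, 12.6 and 10.9 CPM in mock (-0.84 ± 0.12, edgeR adjusted p = 0.00409). SETD3, which methylates a histidine of actin rather than a histone, went from 93.3, 73.7 and 73.5 CPM to 55.7, 36.7 and 42.6 CPM (-0.80 ± 0.18, edgeR adjusted p = 0.0147). SMARCB1, the core SWI/SNF subunit that is lost in rhabdoid tumours, went from 241, 167 and 171 CPM to 124, 101 and 102 CPM (-0.79 ± 0.17, edgeR adjusted p = 0.0136). For all 3 genes every mock library lay below every input library. SETD9 (chromosome 5, 56909260 to 56925532) and SMARCB1 (chromosome 22, 23786963 to 23834516) are also among the 3 shortest members by the summed exons of the deposited files, although the longest annotated transcript of SMARCB1 is 5210 nt.

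Among the 21 methyltransferases, 6 rose in mock and 3 fell, with a median log2 fold change of 0.28; with the replicate block 12 rose and 3 fell. The rises were KMT5C, SETD1A, KMT2B, SETD2, KMT2D and SETD5. KMT2B, one of the enzymes that methylate lysine 4 of histone H3, stood at 111, 108 and 116 CPM in input and at 209, 156 and 192 CPM in mock (0.77 ± 0.13, edgeR adjusted p = 0.00656). SETD1A, of the same COMPASS family, had a value of 0.82 ± 0.14 (edgeR adjusted p = 0.00615) and KMT2D one of 0.48 ± 0.14 (edgeR adjusted p = 0.0375). After the GC offset none of the 3 was called (edgeR adjusted p = 0.39, 0.25 and 0.75), and with the block and the offset together KMT2B and SETD1A were (0.0366 and 0.00464) and KMT2D was not (0.395). SETD2, which trimethylates lysine 36 of histone H3, kept its call there (0.49 ± 0.12 without the offset, edgeR adjusted p = 0.0173, and 0.0073 with it). KMT2A and KMT2C had values of 0.28 and 0.34 and were not called without the block (edgeR adjusted p = 0.331 and 0.267) but were called with it (0.0118 and 0.0017). NSD1 was at 0.27 (edgeR adjusted p = 0.272, and 0.0156 with the block) and SETDB1, which silences through lysine 9 of histone H3, at 0.28 (edgeR adjusted p = 0.137, and 0.00608 with the block). EZH2, the Polycomb methyltransferase, was at -0.06 ± 0.22 (edgeR adjusted p = 0.847).

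Of the 17 demethylases, 5 rose in mock and none fell (median 0.25), and 9 rose and 2 fell with the block. KDM5C, which removes methyl groups from lysine 4 of histone H3, was the largest rise, from 163, 181 and 196 CPM to 337, 302 and 313 CPM (0.85 ± 0.12, edgeR adjusted p = 0.00391, and 0.00714 with the GC offset). Its relatives KDM5A and KDM5B had values of 0.12 and 0.07 and were not called. The H3 lysine 27 demethylases KDM6A and KDM6B were at -0.02 and 0.41, neither called (edgeR adjusted p = 0.947 and 0.324), although KDM6B was called with the block (0.00018). KDM1A, or LSD1, was at -0.21 (edgeR adjusted p = 0.231, and 0.0262 with the block).

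Acetyltransferases and deacetylases gave calls in both directions. Of the 10 acetyltransferases, 2 rose (KAT2A and KAT6B) and KAT7 fell, and with the block 7 rose. KAT2A, the GCN5 subunit of SAGA, moved from 43.9, 42.2 and 41.7 CPM to 83.0, 73.2 and 73.9 CPM (0.88 ± 0.10, edgeR adjusted p = 0.00358). EP300 and CREBBP, the paired coactivators p300 and CBP, had values of 0.27 and 0.30 (edgeR adjusted p = 0.0931 and 0.333), and both were called with the block (0.00912 and 0.00914). KAT5 and KAT8, of the MYST family, were at 0.21 and 0.23 and were called with the block but not without it. Of the bases in KAT5 exons, 29.9% are shared with another gene. Of the 11 deacetylases, HDAC10 and HDAC7 rose and 4 fell (6 and 5 with the block), and these 4 were HDAC1, HDAC2, HDAC3 and HDAC8, the class I enzymes of the nucleus. The class was set apart after the values were seen. HDAC2 had the largest fall, from 201, 133 and 139 CPM to 102, 85.5 and 82.8 CPM (-0.77 ± 0.18, edgeR adjusted p = 0.0173). HDAC1 went from 314, 251 and 254 CPM to 211, 198 and 184 CPM (-0.43 ± 0.13, edgeR adjusted p = 0.0394). HDAC3 and HDAC8 had values of -0.42 and -0.39, and in all 4 genes the mock libraries lay below the input libraries. HDAC1 and HDAC8 were not called with the GC offset (edgeR adjusted p = 0.0562 and 0.0969) but were with block and offset together (0.000326 and 0.0129). HDAC6, a tubulin deacetylase of the cytoplasm, was at 0.19 (edgeR adjusted p = 0.353, and 0.0495 with the block).

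Remodelers of the CHD family rose without a fall: 6 of 10, with a median of 0.58. They included the NuRD ATPases CHD3, CHD4 and CHD5. CHD4 stood at 1137, 1000 and 1075 CPM in input and at 1554, 1564 and 1553 CPM in mock (0.58 ± 0.11, edgeR adjusted p = 0.00963). CHD7, mutated in CHARGE syndrome, had a value of 0.61 ± 0.10 (edgeR adjusted p = 0.00605). CHD1 and CHD8 were at 0.31 and 0.46, not called without the block. The 13 SMARC genes were divided: 2 rose, 3 fell (6 and 5 with the block), and the median was 0.16. The rises were the alternative SWI/SNF ATPases SMARCA4 (0.83 ± 0.13, edgeR adjusted p = 0.00526, and 0.122 with the GC offset but 0.00729 with block and offset) and SMARCA2 (0.72 ± 0.12, edgeR adjusted p = 0.00606). The falls were SMARCB1, SMARCD3 and the DNA annealing helicase SMARCAL1. SMARCC1 and SMARCC2, the scaffold subunits, were at 0.25 and 0.22 (edgeR adjusted p = 0.104 and 0.225, and 0.014 and 0.0348 with the block).

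Of the 10 ARID genes 7 rose and none fell (median 0.43). Besides ARID4A and ARID4B these included ARID1A and ARID1B, the BAF subunits, at 0.46 ± 0.12 and 0.40 ± 0.12 (edgeR adjusted p = 0.0264 and 0.0335), which were not called after the GC offset (0.529 and 0.181); with block and offset ARID1B was called (0.0101) and ARID1A was not (0.126). ARID2, of the PBAF form, was at 0.04 ± 0.12 and was not called. Of the 7 BRD genes 4 rose and none fell (median 0.57). BRD9 went from 43.2, 42.6 and 44.2 CPM to 65.6, 66.8 and 66.9 CPM (0.65 ± 0.09, edgeR adjusted p = 0.00403). BRD2 and BRD3, which read acetylated histones at active genes, were at 0.48 (edgeR adjusted p = 0.0127, and 0.0802 with the GC offset but 0.00413 with block and offset) and 0.57 (edgeR adjusted p = 0.0734, and 4.99e-06 with the block).

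**Figure D2:**
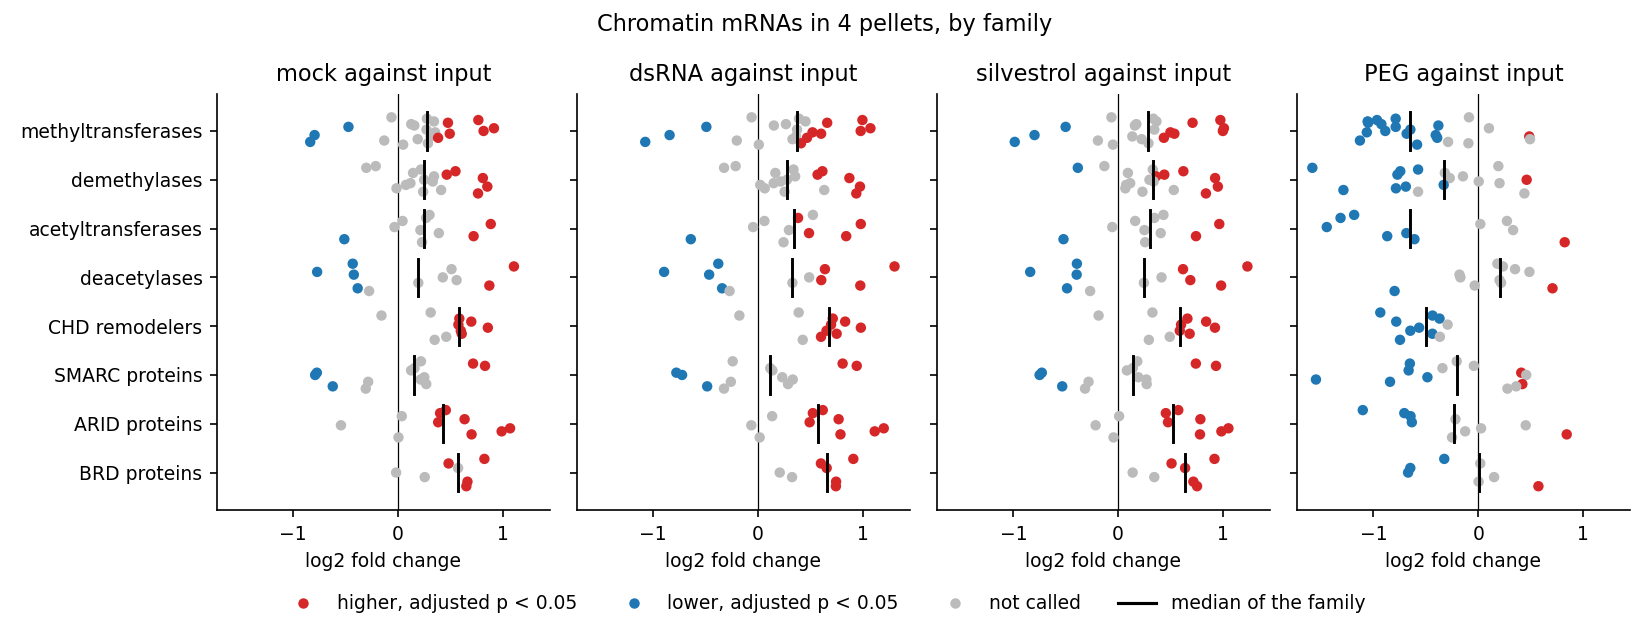
Log2 fold change of each chromatin mRNA (points) in mock, dsRNA, silvestrol and PEG pellets against input, by family, red where called higher, blue where called lower and grey where not called by edgeR, with the median of the family (bar). In mock 34 are red and 11 blue, and in PEG 8 are red and 50 blue, with no CHD remodeler red.

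With dsRNA, 42 of the 99 rose against input and 11 fell, where 21.1% and 19.6% of all genes did, and the median was 0.37. With silvestrol, 39 rose and 12 fell, where 19.4% and 18.1% of all genes did, and the median was 0.33. Each of these comparisons used the same 3 input libraries as mock, so they are not independent of it. The falls with dsRNA numbered 7 without input replicate 2, 6 without input replicate 3, 5 without dsRNA replicate 2 and 4 without dsRNA replicate 3. Without input replicate 2, silvestrol rises numbered 24, and falls numbered 7 without silvestrol replicate 2 or without silvestrol replicate 3.

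With dsRNA, HDAC10 had a log2 fold change of 1.30, ARID4A of 1.20 and ARID4B of 1.11. SETD9 was at -1.08, with 9.34, 10.2 and 9.63 CPM in the dsRNA libraries, HDAC2 at -0.90 and SETD3 at -0.84. With silvestrol, HDAC10 was at 1.23, ARID4A at 1.05 and KMT5C, a methyltransferase of lysine 20 of histone H4, at 1.01 ± 0.18 (edgeR adjusted p = 0.00457, and 0.0741 with the GC offset but 0.00714 with block and offset). SETD9 was at -0.99, HDAC2 at -0.84 and SETD3 at -0.80. HDAC5, HDAC11 and SETD1B were called higher with dsRNA (0.60, 0.64 and 0.52) and with silvestrol (0.69, 0.62 and 0.50). None of these genes was called higher with dsRNA or silvestrol under the GC offset, with or without the block. In mock they had values of 0.56, 0.51 and 0.35 and were called with the block but not without it. KDM1B was lower with silvestrol (-0.38 ± 0.12, edgeR adjusted p = 0.0388, and 0.156 with the GC offset but 0.0379 with block and offset). EP300, at 0.38 ± 0.11, was called with dsRNA (edgeR adjusted p = 0.0289, and 0.0892 with the GC offset but 0.00758 with block and offset).

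**Figure D3:**
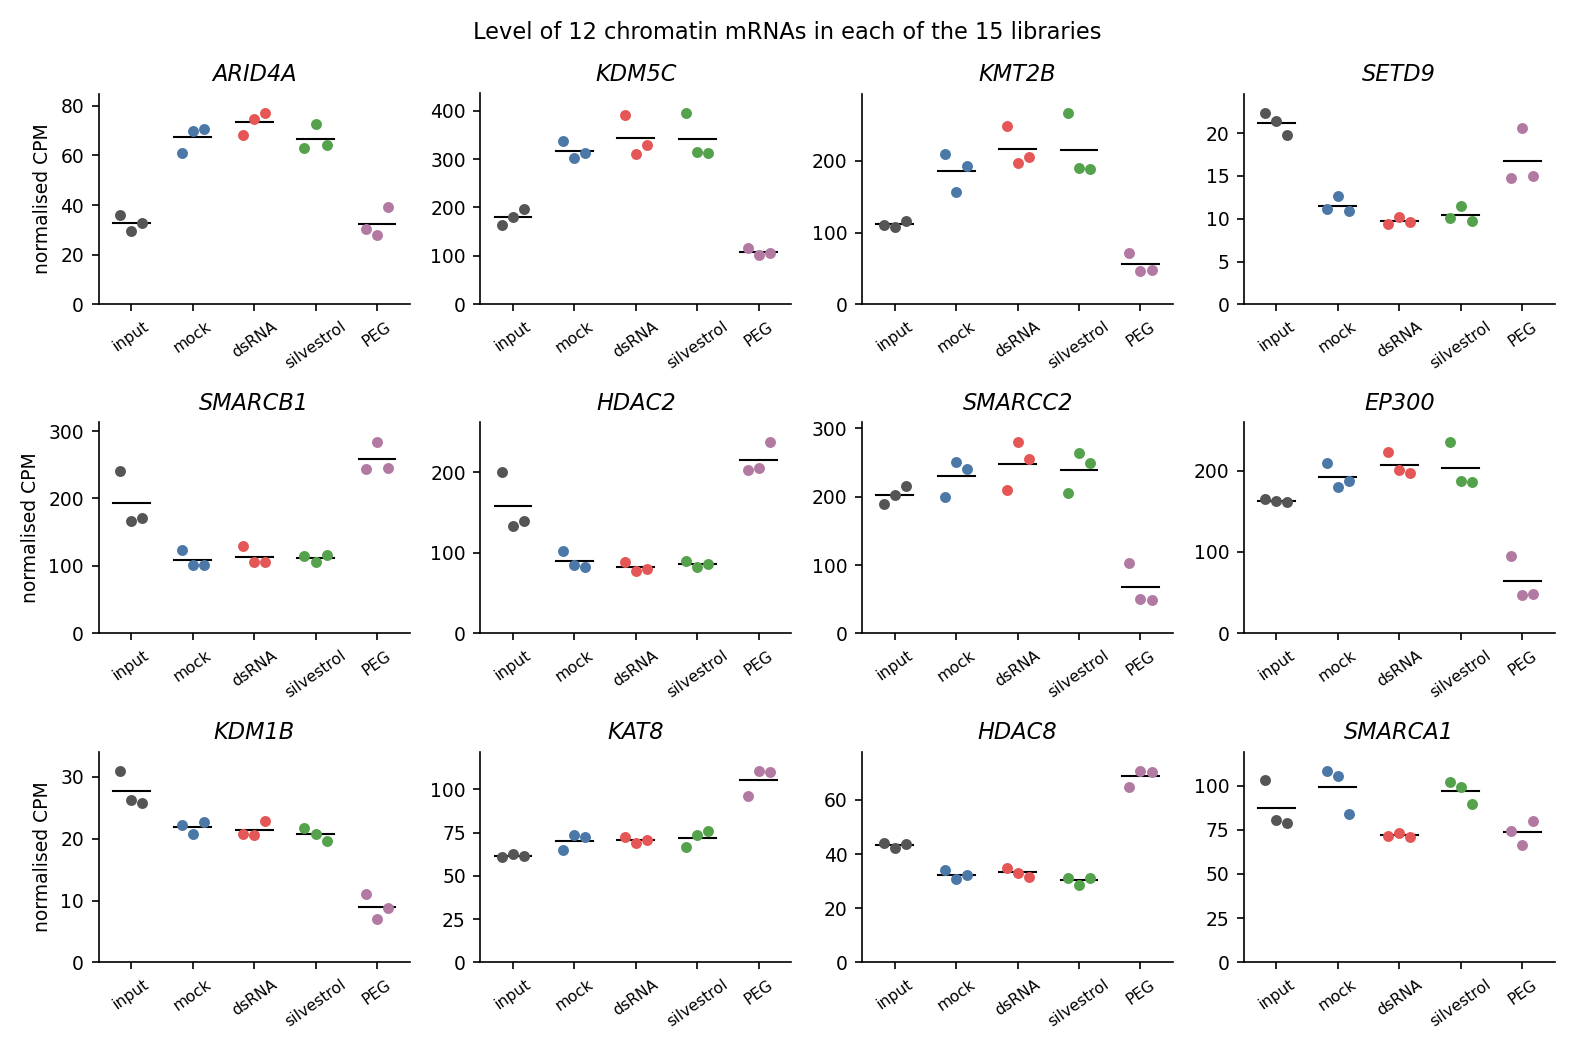
Normalised CPM of 12 chromatin mRNAs in each of the 15 libraries (points, replicates 1 to 3 from left to right), with the mean of each group (bar) and axes that start at 0. ARID4A, KDM5C and KMT2B lie above input in the mock, dsRNA and silvestrol pellets, SETD9, SMARCB1 and HDAC2 lie below it, and SMARCC2, EP300 and KDM1B are lowest in the PEG pellets.

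Against the mock pellet, neither dsRNA nor silvestrol gave a call. With dsRNA 0 members rose and 0 fell, where 0% of all genes did in each direction. At an unadjusted p under 0.05, edgeR named 1 member and 374 of all genes, and DESeq2 called 0 members and 64 genes, all lower. Members' log2 fold changes ran from -0.47 (SMARCA1) to 0.48 (ARID3C, on 7 to 29 reads per library), with the next highest at 0.22 (KMT2B), around a median of 0.08, with a median SE of 0.12, against a range of -0.84 to 1.105 for mock against input. With the replicate block, 4 members were called higher and 1 lower, where 0.15% and 2.65% of all genes were. Among the 4 were KMT2B (0.23), KDM6B (0.22) and CREBBP (0.21), with edgeR adjusted p-values of 0.0334, 0.0414 and 0.0412. None of the 4 was called with the block and the GC offset together.

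SMARCA1, an ATPase of the ISWI class that spaces nucleosomes, was the 1 member lower with dsRNA under the block. The dsRNA libraries held it at 71.5, 73.2 and 70.8 CPM, the mock libraries at 108, 105 and 84.2 CPM and the silvestrol libraries at 102, 99.5 and 89.6 CPM. Each dsRNA library lay below every mock and silvestrol library, and also below every input library (103, 80.3 and 78.9 CPM in replicates 1, 2 and 3). With dsRNA against input SMARCA1 was not called, with or without the block. Against mock its log2 fold change was -0.47 ± 0.12 (edgeR adjusted p = 1.00 without the block, unadjusted 0.00546) and with the block it was -0.46 (edgeR adjusted p = 6.59e-06). Against silvestrol it was -0.43 ± 0.09 (edgeR adjusted p = 0.659), with the block it was also -0.43 (edgeR adjusted p = 2.10e-06), and DESeq2 called it too (adjusted p = 0.00414). These comparisons share the dsRNA libraries. SMARCA1 lies on chromosome X, 129446501 to 129523500, minus strand, and none of its exon bases are shared with another gene. Its relative SMARCA5 was at -0.05 against mock.

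Silvestrol against mock gave 0 calls in each direction (0% of all genes), with 0 members and 35 of all genes at an unadjusted edgeR p under 0.05 and 0 calls of either kind by DESeq2. The block also gave 0 members there, and values ran from -0.17 to 0.34. Between dsRNA and silvestrol, edgeR gave 0 calls (0% in each direction), with 1 member and 330 of all genes at an unadjusted p under 0.05. SMARCA1 was the only member called lower there with the block, where 2.49% of all genes were, and the only one by DESeq2, where 0.409% were.

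PEG pellets gave more falls than rises. Against input 8 of the 99 rose and 50 fell, where 25.5% and 25.9% of all genes did, and the median was -0.37 against -0.0094 over all genes. With the replicate block 14 rose, where 28% of all genes did, and 51 fell, where 27.8% did. Scaled by library size alone, in place of TMM factors, the median of all genes moved to -0.35, that of the members to -0.70, and the calls to 2 rises and 68 falls, where 14.1% and 41.5% of all genes were called. The libraries of the group were uneven. PEG replicate 1, the shallowest library, was the highest of the 3 in 46 of the 50 falls. In all 50 each PEG library lay below each input library, which a call makes likely by itself. Among all 99 members 55 lay so, where 33% of all genes did. Without PEG replicate 1 there were 5 rises and 50 falls, with a median of -0.44. The count of rises was 18 without input replicate 1, 5 without input replicate 3, 4 without PEG replicate 2 and 5 without PEG replicate 3.

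KDM1B, SMARCC2 and KAT2B fell most. KDM1B, the LSD2 demethylase, went from 31.0, 26.3 and 25.8 CPM in input to 11.05, 7.07 and 8.81 CPM with PEG (-1.58 ± 0.19, edgeR adjusted p = 0.000394), a fold of 0.334. SMARCC2 went from 190.1, 203 and 216 CPM to 104, 50.03 and 48.3 CPM (-1.55 ± 0.28, edgeR adjusted p = 0.00199), and replicate 1 held more than replicates 2 and 3. KAT2B, the PCAF acetyltransferase, went from 17.5, 16.5 and 16.5 CPM to 6.69, 6.18 and 5.05 CPM (-1.44 ± 0.16, edgeR adjusted p = 0.000293). KDM1B lies on chromosome 6 (18155329 to 18223853), SMARCC2 on chromosome 12 (56162983 to 56189567) and KAT2B on chromosome 3 (20040023 to 20154404).

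ARID5A, KAT8 and HDAC8 rose most. ARID5A, which besides its DNA-binding domain is known to bind and stabilise mRNAs, went from 16.6, 22.9 and 27.6 CPM to 35.01, 42.1 and 39.4 CPM (0.84 ± 0.17, edgeR adjusted p = 0.0039). KAT8, which acetylates lysine 16 of histone H4, went from 60.7, 62.6 and 61.2 CPM to 96.1, 111 and 109.8 CPM (0.82 ± 0.11, edgeR adjusted p = 0.000639). HDAC8 went from 44.1, 42.2 and 43.8 CPM to 64.8, 70.8 and 70.4 CPM (0.71 ± 0.11, edgeR adjusted p = 0.00109). In all 3 genes the PEG libraries lay above the input libraries. In mock, ARID5A was also called higher, but not after the GC offset (edgeR adjusted p = 0.0312 and 0.499).

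By family, 15 of the 21 methyltransferases fell with PEG and 1 rose (median -0.65). All 6 catalytic subunits of COMPASS (KMT2A, KMT2B, KMT2C, KMT2D, SETD1A and SETD1B) fell, with values from -1.06 to -0.79, a grouping made after the values were seen. KMT2B went to 71.8, 46.5 and 48.3 CPM (-0.97 ± 0.18, edgeR adjusted p = 0.00217). KMT2D went to 150.4, 51.6 and 73.1 CPM, an uneven group (-1.05 ± 0.33, edgeR adjusted p = 0.0267). SETD2 and NSD1 also fell (-0.68 and -0.65), whereas SETDB1 and EZH2 were at -0.09 and -0.09 and were not called. Of the 17 demethylases 8 fell and 1 rose (median -0.33). KDM6B and KDM6A fell (-1.29 and -0.78), as did KDM5B and KDM5C (-0.33 and -0.69), whereas KDM5A (0.20) and KDM1A (0.19) were not called. Of the 50 falls 40 were also called after the GC offset, and the 10 lost, among them KDM5B, CHD1, CHD7, ARID2 and HDAC9, had a median GC content of 40.5%. With block and offset together 44 were called, CHD1 and CHD7 among them.

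Of the 10 acetyltransferases 6 fell and 1 rose (median -0.65). EP300 went from 165, 163 and 162 CPM in input to 95.2, 47.0 and 48.8 CPM (-1.31 ± 0.26, edgeR adjusted p = 0.00301), and CREBBP from 216, 159 and 164 CPM to 112, 55.4 and 63.1 CPM (-1.18 ± 0.27, edgeR adjusted p = 0.00618). Replicate 1 was again the highest PEG library for each. KAT2A, which had risen in mock, was at 0.02 ± 0.11, and KAT5 was at 0.33, called with the block but not without it. The 11 deacetylases gave 1 rise (HDAC8), 1 fall (HDAC9) and a median of 0.20, and 3 rises with the block. HDAC2 lay at 202, 206 and 238 CPM (0.49 ± 0.19, edgeR adjusted p = 0.0552, and 0.0342 with the block), and with the GC offset its value was 0.90 (edgeR adjusted p = 0.00171). HDAC1, HDAC3 and HDAC6 were at 0.18, -0.18 and 0.22, none called.

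CHD remodelers gave 8 falls of 10 and no rise (median -0.50). CHD3 and CHD5 fell (-0.78 and -0.56), as did CHD1 and CHD7 (-0.93 and -0.44), and the 2 not called were CHD4 (-0.29) and CHD8 (-0.37). SMARC genes gave 2 rises, SMARCD2 and SMARCAL1, neither called after the GC offset with or without the block, and 5 falls (median -0.21). SMARCA4 was at -0.04 and was not called, while SMARCA2 fell (-0.65). SMARCC1 fell (-0.48), and SMARCB1, at 243, 284 and 246 CPM, had a value of 0.46 ± 0.18 (edgeR adjusted p = 0.0584, and 0.0409 with the block). ARID1A, ARID1B and ARID2 fell (-1.10, -0.71 and -0.65), and the ARID genes gave 4 falls and 1 rise in all. BRD3 fell (-0.65), BRD2 was at 0.02, and BRD9 rose (0.57 ± 0.11, edgeR adjusted p = 0.00245), as it had in mock.

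The pellets with and without PEG were also compared directly, with no input library in the fit. Against mock, 12 members were higher with PEG and 64 lower, where 31.3% and 32.2% of all genes were, and the median was -0.71 against -0.03. By library size alone the medians were -1.16 and -0.49, with 5 members higher and 80 lower, where 18.8% and 49.8% of all genes were. Without PEG replicate 1 there were 13 higher and 62 lower. SMARCC2, KMT2B and SETD1A were the furthest below mock (-1.70 ± 0.27, -1.67 ± 0.19 and -1.64 ± 0.18, edgeR adjusted p = 0.000386, 5.41e-05 and 4.6e-05). HDAC2, SMARCB1 and SMARCAL1 were the furthest above it (1.33 ± 0.14, 1.32 ± 0.14 and 1.25 ± 0.14, edgeR adjusted p = 2.85e-05, 3.09e-05 and 4.74e-05). For these 6 genes no PEG library overlapped a mock library. The mock libraries in this fit are those compared with input above. KDM5C, at 116, 102 and 106 CPM with PEG against 302 to 337 in mock, had a value of -1.48 ± 0.12 (edgeR adjusted p = 9.75e-06). EZH2, KDM5A and HDAC6 (0.05, 0.15 and 0.08) were not called, and by library size alone these 3 were lower with PEG.

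Length and base composition varied with these values. Over the 99 members, which share libraries and are not replicates, Spearman's rho between coding length and log2 fold change was 0.41 in mock, 0.45 with dsRNA and 0.42 with silvestrol, and -0.60 with PEG. Over the 13539 genes with a coding length it was 0.43, 0.43, 0.43 and -0.45. With summed exon length the members gave 0.23, 0.26, 0.23 and -0.47. When they were divided by exon length into sets of 33, the shortest set (1.41 to 6.31 kb) held 7 rises and 8 falls in mock, the middle set 14 and 1, and the longest set (10.4 to 44.1 kb) 13 and 2. With PEG the shortest set held 5 rises and 9 falls, the middle set 3 and 17, and the longest set 0 and 24. GC content gave a rho of 0.43 in mock, 0.48 with dsRNA, 0.49 with silvestrol and 0.13 with PEG, against 0.41, 0.45, 0.44 and 0.30 over 16529 genes. Members whose rise in mock was lost with the GC offset had a median GC content of 58.4%, and those that kept it one of 49.6%.

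**Figure D4:**
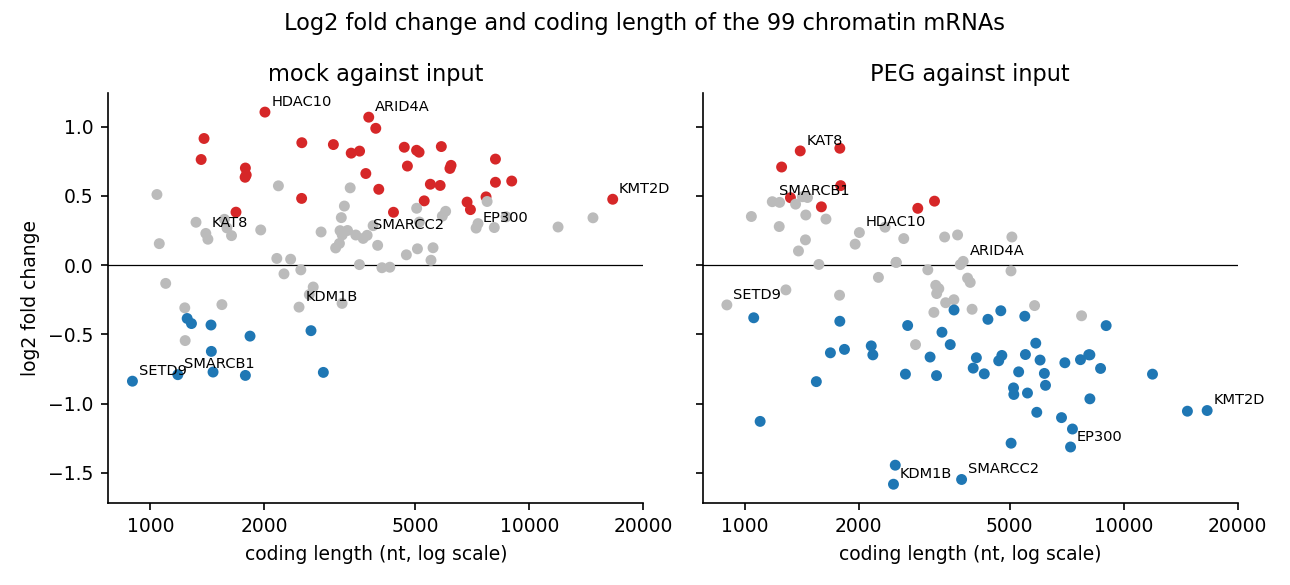
Log2 fold change against input (vertical) and coding length in nucleotides (horizontal, log scale) of the 99 chromatin mRNAs in mock and in PEG pellets, red where called higher, blue where called lower and grey where not called by edgeR. Some short coding sequences, such as those of SETD9 and SMARCB1, lie low in mock, although KMT5C (1386 nt) was called higher. With PEG some long ones, such as those of KMT2D and EP300, lie below 0, although KDM5A (5070 nt) was at 0.20. Spearman's rho was 0.41 in mock and -0.60 in PEG.

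Other chromatin genes, outside the rule, were read from 10 lists of partners and related enzymes, 220 genes tested of 221 listed. In mock 56 rose and 27 fell (median 0.10), and with the block 91 and 64. With dsRNA 68 rose and 34 fell (89 and 55 with the block, where 31% and 29.1% of all genes did). With silvestrol 58 rose and 32 fell (85 and 56 with the block, where 30.8% and 28.7% of all genes did). With PEG 36 rose and 91 fell (median -0.27). For the other counts, the shares of all genes given above are the background too.

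Among DNA methylation genes 3 of 12 rose in mock and none fell (5 and 1 with the block), and 9 of 12 fell with PEG. DNMT1, the maintenance methyltransferase, rose in mock from a mean of 245 to 483 CPM (1.01 ± 0.17, edgeR adjusted p = 0.00605), and TET2, which oxidises methylcytosine, fell with PEG from 40.1 to 12.2 CPM (-1.69 ± 0.32, edgeR adjusted p = 0.00262). Among 24 other ATP-dependent remodelers 9 rose and 1 fell in mock (13 and 6 with the block), and 6 rose and 10 fell with PEG. RSF1, a partner of SMARCA5, had the largest rise in mock (1.00 ± 0.11, edgeR adjusted p = 0.00358) and RUVBL2, an AAA+ ATPase, was the 1 fall (-0.34 ± 0.10, edgeR adjusted p = 0.0324). With PEG these were INO80B (1.15 ± 0.15, edgeR adjusted p = 0.000546) and SRCAP (-1.27 ± 0.18, edgeR adjusted p = 0.000796). The 30 Polycomb subunits gave 7 rises and 4 falls in mock (12 and 8 with the block), with CBX2 at 0.87 and YAF2 at -0.76 the furthest in each direction, and 5 rises and 15 falls with PEG, with PCGF1 at 1.04 and PCGF5 at -1.33. The 23 bromodomain and histone readers gave 7 rises and 1 fall in mock (10 and 5 with the block), TRIM28 at 0.96 and CBX3 at -0.70, and no rise and 14 falls with PEG, SPIN1 at -1.37.

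The 30 deacetylase complex subunits and sirtuins gave 5 rises and 4 falls in mock, around a median of -0.15, and 8 rises and 14 falls with the block. MBD3, a NuRD subunit, had the largest rise (1.06 ± 0.13, edgeR adjusted p = 0.00358) and SAP18, a small SIN3 subunit, the largest fall (-1.19 ± 0.19, edgeR adjusted p = 0.00538). With PEG the list gave 7 rises and 10 falls, and SAP18 was the largest rise (0.84 ± 0.20, edgeR adjusted p = 0.0074) and SIRT1, an NAD-dependent deacetylase, the largest fall (-1.12 ± 0.19, edgeR adjusted p = 0.00138). The 13 COMPASS subunits gave 4 rises and 2 falls in mock (7 and 3 with the block), PAXIP1 at 0.78 and DPY30 at -0.96, and 1 rise and 2 falls with PEG (2 and 4 with the block), DPY30 at 0.89 and HCFC1 at -0.77. The 16 SWI/SNF partners gave 2 rises and 1 fall in mock (5 and 5 with the block), BCL7A at 0.56 and ACTB at -0.91, and 2 and 4 with PEG, BCL7C at 0.83 and BICRAL at -1.20. The 44 acetyltransferase subunits gave 7 rises and 8 falls in mock (16 and 13 with the block), TAF6L at 0.73 and MORF4L1 at -1.08, and 10 and 15 with PEG, ING4 at 0.99 and ATXN7 at -1.25. The 21 methyltransferases outside the rule gave 8 rises and 6 falls in mock, DOT1L at 0.84 and SUV39H2 at -1.22, and 4 and 9 with PEG, PRMT1 at 1.11 and CARM1 at -1.48. The 7 further JmjC demethylases gave 4 rises and no fall in mock (5 and 1 with the block), HR at 0.96, and 1 and 3 with PEG (2 and 3 with the block), RIOX1 at 0.45 and JMJD1C at -0.76.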

How the data were processed

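Poly(A) RNA-seq of 15 libraries was used. Each library came as a table of unnormalised counts by gene, as the authors deposited it. The submitters' processing notes name Trimmomatic 0.36, STAR 2.5.2b, featureCounts (Subread 1.5.2) and GRCh38. Strand and multimapping settings and the annotation release are not given in the sources used here. Of the members, 17 share over 10% of their exon bases with another gene, KAT5 (29.9%) and BRD3 (18.6%) among them, and 3 share over 30%. Coordinates are those of the deposited files; GC content and coding length came from GENCODE release 29. Counts were normalised with TMM and tested with edgeR 4.0.16 in R 4.3.3 (quasi-likelihood F test, prior count 2) on the 6 libraries of each comparison over 16612 genes, with the Benjamini-Hochberg adjustment over all of them and a threshold of 0.05. DESeq2 1.42.0, which the study's methods name, was an alternative. CPM were computed on TMM-scaled library sizes.

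The members, families and partner lists were chosen with earlier results of these data known. Named genes were enzymes and core subunits that define their families (1 of the 39 so chosen is not reported here), the 3 largest rises and falls called in each comparison, the 3 longest and shortest members, the highest and the lowest level per kilobase, and the largest rise and fall of each partner list; others in the text were chosen after their values were seen.

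Deviations from group means correlated at 0.131 to 0.861 in 30 pairs of same-numbered libraries and at -0.746 to 0.583 in 60 other pairs. Replicate 1 stood apart, while replicates 2 and 3 were not always told from each other. Input replicate 2 was at 0.583 with mock replicate 2 and with mock replicate 3. Mock replicate 2 was at 0.649 with dsRNA replicate 2 and at 0.539 with dsRNA replicate 3. The numbers in the labels were taken to pair the libraries, which is less certain for replicates 2 and 3. The labels call replicates biological; p-values cover the spread between these extracts. The fits were tested on simulated data made like mock and input over 16612 genes. Of 200 genes given a log2 change of 1 up or down, the test called 154, with 5 calls among unchanged genes. Far fewer genes were changed there than were called in mock against input. Where same-numbered libraries shared an effect and other spread was smaller, 160 were called without the block and 192 with it. Where only a GC trend was simulated, 30 of those 200 and 3102 other genes were called without the GC offset and 0 with it. That trend was smooth, as the offset assumes, so the simulation cannot show whether the offset spares real change linked to GC content. Alternatives were another normalisation, no filter or a stricter one, all 15 libraries in 1 fit, the replicate block, the GC offset, thinned libraries and leaving out each library.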

Additional observations from a re-analysis of the deposited data

How the results depend on the processing

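Of the named genes' log2 fold changes, those that changed sign beside a call all did so under library size alone: against input KAT2A was at -0.32 and BRD2 at -0.33 with PEG, and against mock EZH2 was at -0.41, KDM5A at -0.32, HDAC6 at -0.39 and SETD3 at -0.0050. With the replicate block, members called higher numbered 62 in mock, 14 with PEG and 4 for dsRNA against mock, with 1 lower for dsRNA against mock and 1 lower for dsRNA against silvestrol; the paired fit made 51 more calls on named genes, lost none, and moved no other count over the 99 members by over 1.5 times. Block and GC offset together gave 52 higher in mock, and 1 lower in each of dsRNA against mock and dsRNA against silvestrol, where DESeq2 also gave 1 lower. Library size alone gave 2 higher for PEG against input and 5 for PEG against mock, with medians of -0.70 and -1.16 (all genes -0.35 and -0.49), and in mock a median of 0.34 (all genes 0.058). Other medians that moved by more than their spread over libraries were in mock 0.23 without a filter, 0.23 with the GC offset and 0.23 with block and offset (all genes -0.045 and -0.046 with these), and with dsRNA 0.30 with the GC offset and 0.29 with block and offset. An absolute log2 fold change over 1 left 2 higher and 0 lower in mock, 4 and 1 with dsRNA, and 3 and 0 with silvestrol. It left 0 and 11 with PEG, and 6 and 30 for PEG against mock. The share of all genes past this cut is not given here, so these counts describe the members alone.

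Leaving out 1 library at a time, members called higher ranged from 20 to 37 in mock, 24 to 41 with silvestrol and 4 to 18 with PEG, and members called lower from 3 to 12 in mock, 4 to 11 with dsRNA and 7 to 12 with silvestrol. Medians ranged from 0.23 to 0.33 in mock, from 0.043 to 0.086 for dsRNA against mock and from 5.7e-05 to 0.056 for dsRNA against silvestrol. Under the GC offset, 42 of the named genes' calls were lost and 11 made. Thinned to 15341973 counts per library, 98 members passed the filter. ARID3C, at 7 to 29 reads per library, is limited by depth. The cause of these shifts was not tested.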
